A study of Mus musculus with 9 samples.

Results

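The insulin-like growth factor (IGF) system was followed in mouse ovaries through 10 genes: the ligands Igf1 and Igf2, the receptors Igf1r and Igf2r, and the binding proteins Igfbp2 to Igfbp7. All probes annotated to these symbols were taken, 24 of the 45281 on the array, and the 10 genes are part of 19057 named ones. Total RNA of whole ovaries had been hybridized to Illumina expression BeadChips in 3 groups, all of strain C57BL/6: wild type (WT), a model of premature ovarian failure (POF), and recipients of transplanted spermatogonial stem cells (SSCTR). The labels give no age, no way in which ovarian failure was brought about, no state of the recipients before transplantation and no word on whether replicates are separate animals, so p-values measure only the spread between these arrays, which may be technical. Each group has 2 measured arrays, labelled replicates 2 and 3. The deposited replicate 1 column was not used: it is their mean times a factor, of which 6 distinct values occur in WT, 9 in POF and 17 in SSCTR. With so few arrays, precision is low throughout.

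IGF1 and IGF2 are small secreted hormones that act mainly through the IGF1 receptor, a tyrosine kinase that signals through insulin receptor substrates to AKT and MAP kinase. The IGF2 receptor, which also carries mannose-6-phosphate proteins, takes IGF2 to lysosomes and clears it. The binding proteins hold the ligands with high affinity in tissue fluid, and proteases release the ligands by cutting them. In the mouse ovary Igf1 is made by granulosa cells of growing follicles, where it raises the response to follicle-stimulating hormone.

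The whole array gives the setting. Probes above background (detection p under 0.05) were fewest on the SSCTR arrays, with 16546 and 16040, against 17752 and 18019 in WT and 17855 and 18041 in POF. Genes that define ovarian tissue were present: 11 of 12 granulosa genes with a probe, 7 of 7 luteal genes and 12 of 12 oocyte genes were measured, and among the granulosa genes Amh had no probe above background on enough arrays. Arrays of a group correlated at 0.988 to 0.989 over 13872 features, against 0.957 to 0.979 between groups; features are not independent replicates. Levels below are log2 intensities after background correction and quantile normalization, and each gene is represented by its brightest probe unless another is named. Levels of different probes are not comparable with each other. All 10 genes had a probe above background on all 6 arrays.

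The threshold was an adjusted p of 0.05 in limma, corrected across 13872 features by the Benjamini-Hochberg method. The members Igf1, Igf1r, Igfbp2 and Igfbp5 passed it in at least 1 comparison. The 250 bases before a transcript start of each are shown for the promoter boxes near it, from RefSeq with build GRCm38.p6. Capitals mark matches, on either strand, to the GC box GGGCGG, the TATA box TATAAA and the CCAAT box CCAAT. The window of Igf1 is chr10:87860861-87861110 on the plus strand, that of Igf1r chr7:67952007-67952256 on the plus strand, that of Igfbp2 chr1:72824230-72824479 on the plus strand and that of Igfbp5 chr1:72874866-72875115 on the minus strand. The Igf1 window lies inside the annotated gene, which begins at 87858265, and precedes an internal start, while the other windows end where their genes begin.
Igf1: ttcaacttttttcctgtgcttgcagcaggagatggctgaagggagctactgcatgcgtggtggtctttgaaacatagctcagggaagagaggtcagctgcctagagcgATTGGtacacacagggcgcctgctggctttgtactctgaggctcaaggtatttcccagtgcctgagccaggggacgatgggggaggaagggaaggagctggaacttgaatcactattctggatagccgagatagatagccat
Igf1r: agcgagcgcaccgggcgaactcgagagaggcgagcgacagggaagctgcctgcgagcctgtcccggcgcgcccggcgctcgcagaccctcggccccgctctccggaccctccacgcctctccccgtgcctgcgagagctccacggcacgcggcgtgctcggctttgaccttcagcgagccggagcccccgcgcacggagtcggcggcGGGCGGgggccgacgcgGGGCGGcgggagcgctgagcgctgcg
Igfbp2: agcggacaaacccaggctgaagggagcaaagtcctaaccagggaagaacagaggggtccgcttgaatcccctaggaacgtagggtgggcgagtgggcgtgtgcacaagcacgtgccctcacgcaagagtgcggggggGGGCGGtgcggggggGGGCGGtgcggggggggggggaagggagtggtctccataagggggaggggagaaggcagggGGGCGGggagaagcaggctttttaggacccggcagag
Igfbp5: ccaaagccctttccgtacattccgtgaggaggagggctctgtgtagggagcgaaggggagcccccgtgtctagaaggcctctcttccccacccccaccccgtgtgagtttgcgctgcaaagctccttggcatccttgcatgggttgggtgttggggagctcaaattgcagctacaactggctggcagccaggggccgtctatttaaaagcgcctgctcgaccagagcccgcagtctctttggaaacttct
Igf1r has 2 GC boxes, which begin 43 and 26 bases before the start, and Igfbp2 has 3, which begin 113, 98 and 37 bases before it. Igf1 has a CCAAT box that begins 142 bases before its start, and the Igfbp5 window has none of the 3 motifs. Of all 32851 promoter windows of this length in the table, 32.7% hold a GC box, 12.4% a TATA box and 33.8% a CCAAT box. The G and C content was 77.6% for Igf1r, 67.2% for Igfbp2, 58.8% for Igfbp5 and 52.8% for Igf1, beside a median of 52.4% over all windows. These matches are a description of the letters and were not tested as sites. Igfbp2 and Igfbp5 are neighbours on chromosome 1 in opposite orientation, with 5590 bases between their ends.

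**Figure D1:**
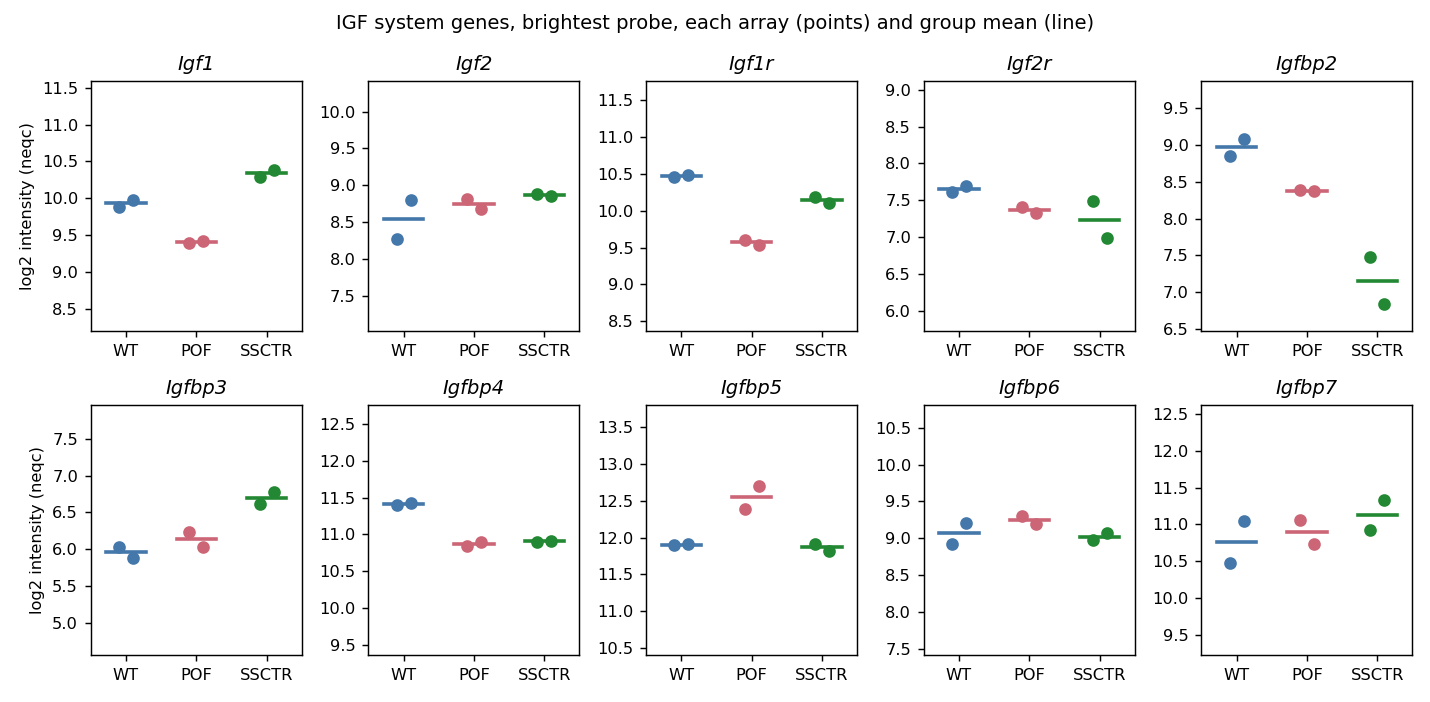
Log2 intensity (vertical axis) of the 10 IGF system genes on each array (points) with the group mean (line), for WT, POF and SSCTR; every panel spans the same range of log2 units. Igf1 and Igf1r are lowest in POF, Igfbp2 is lowest in SSCTR, and Igfbp5 is highest in POF (12.39 and 12.71).

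Of the ligands, Igf1 was lowest in POF and highest in SSCTR, and Igf2 did not pass in any comparison. Igf1 read 9.88 and 9.98 in WT, 9.39 and 9.42 in POF, and 10.29 and 10.38 in SSCTR. No array of one group reached into another, and the order from low to high was POF, WT, SSCTR. In SSCTR, Igf1 stood 1.90-fold above POF (log2 change 0.93 ± 0.16 SE, adjusted p = 0.00698), a call that held without each of the 6 arrays in turn (adjusted p of 0.0142 to 0.0480). Neither neighbour in that order passed: POF against WT was at -0.52 (adjusted p = 0.0739, 95% interval -0.89 to -0.15) and SSCTR against WT at 0.40 (adjusted p = 0.240, 95% interval 0.03 to 0.78). POF against WT passed without background correction (adjusted p = 0.00703), and in 7 of the 10 alternatives that leave out no array. The second Igf1 probe kept the order of the means at a smaller distance, with 8.92 and 9.04 in WT, 8.74 and 8.72 in POF, and 9.35 and 9.02 in SSCTR. Its SSCTR arrays overlap the WT arrays, and its change of 0.45 in SSCTR against POF had an adjusted p of 0.177 over the 19394 probes that entered.

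Igf2, the growth factor of fetal life, has 1 probe here. It read 8.27 and 8.80 in WT, 8.81 and 8.67 in POF, and 8.89 and 8.86 in SSCTR. The spread of the WT arrays is larger than the distance between any pair of group means. The 3 changes lay between 0.13 and 0.33 with adjusted p of 0.461 or more, and the interval of SSCTR against WT ran from -0.14 to 0.81.

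The receptor that carries the IGF signal, Igf1r, was lowest in POF on its brightest probe and on the next. On the brightest probe it read 10.46 and 10.48 in WT, 9.60 and 9.54 in POF, and 10.19 and 10.10 in SSCTR. All 3 groups are apart. POF was 1.87-fold lower than WT (-0.90 ± 0.16 SE, adjusted p = 0.00885), while the change of 0.58 in SSCTR against POF had an adjusted p of 0.0508 and that of -0.32 in SSCTR against WT an adjusted p of 0.350. For Igf1r the POF call was lost when WT replicate 2 (adjusted p = 0.0540), WT replicate 3 (0.0552) or POF replicate 3 (0.0577) was left out. SSCTR against POF passed in 8 of the 10 alternatives that leave out no array, among them that without background correction (adjusted p = 0.00320). It also passed with the mean of the 3 Igf1r probes that entered (adjusted p = 0.000673), there with a change of 1.39. The changes of these probes were 0.58, 3.29 and 0.31.

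The probes of Igf1r differ in how SSCTR stands to WT. Of the 19 member probes that entered, 3 passed in each comparison, beside 9.52% of all probes in POF against WT, 10.1% in SSCTR against POF and 2.44% in SSCTR against WT. The second probe, ILMN_1239663, is annotated to the same transcript as the brightest, ILMN_1249824. It read 8.65 and 8.55 in WT, 6.95 and 6.62 in POF, and 10.01 and 10.14 in SSCTR. Here SSCTR is the highest group, not WT. In the fit over all probes, SSCTR exceeded POF 9.77-fold (3.29 ± 0.19 SE, adjusted p = 1.80e-05) and WT 2.79-fold (1.48 ± 0.19 SE, adjusted p = 0.00490), and POF was 3.50-fold below WT (-1.81 ± 0.19 SE, adjusted p = 0.000637). All 3 calls held under the 9 alternatives run on it and without each of the 6 arrays, but the size depends on the background correction: without it SSCTR against POF was at 2.61 in place of 3.29. For SSCTR against WT the 95% interval was 1.05 to 1.91 on this probe and -0.71 to 0.07 on the brightest, so the intervals do not meet. With the mean of the probes, Igf1r turned from -0.32 to 0.49 in SSCTR against WT, without passing (adjusted p = 0.135). Of the other Igf1r probes, ILMN_2482214 stayed between 4.58 and 5.11 and was above background on 4 of 6 arrays, and ILMN_1232222 was not above background on any.

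Igf2r, the clearing receptor, did not pass in any comparison. Its brighter probe read 7.62 and 7.70 in WT, 7.41 and 7.32 in POF, and 7.49 and 6.98 in SSCTR. The largest change was -0.42 in SSCTR against WT (adjusted p = 0.329, 95% interval -0.88 to 0.04), and the SSCTR arrays lie farther apart than the group means. On the other probe POF was 0.11 above WT, against -0.29 on the brighter one, and neither passed.

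**Figure D2:**
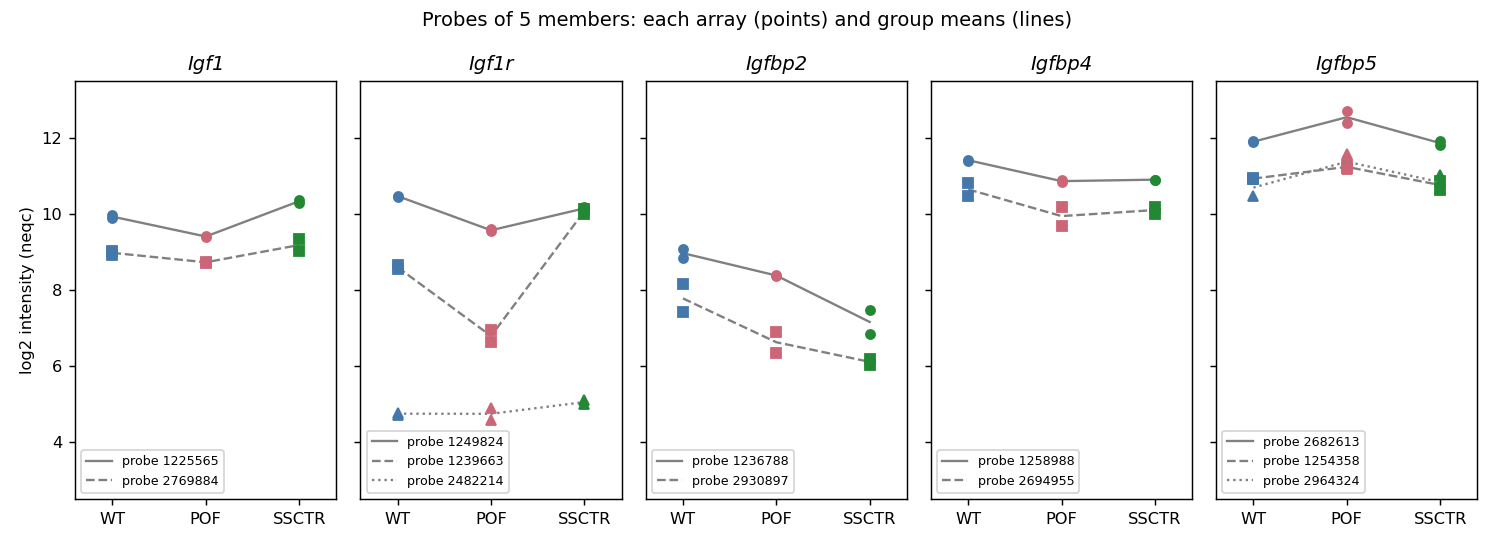
Log2 intensity (vertical axis) of every probe that entered for Igf1, Igf1r, Igfbp2, Igfbp4 and Igfbp5, by group (horizontal axis); points are arrays, lines join group means, and line styles separate probes. The dashed Igf1r probe falls to 6.79 in POF and rises to 10.08 in SSCTR, while the solid one runs from 9.57 to 10.15.

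Igfbp2 was the member with the largest change on the brightest probes, and the only one past the threshold in SSCTR against WT. IGFBP2 binds IGF2 and IGF1. Its level fell from WT over POF to SSCTR, with 8.85 and 9.08 in WT, 8.39 and 8.37 in POF, and 7.48 and 6.84 in SSCTR. The groups do not overlap, and the SSCTR arrays lie 0.64 apart. SSCTR was 3.51-fold lower than WT (-1.81 ± 0.23 SE, adjusted p = 0.00474), also without each array in turn (adjusted p of 0.00681 to 0.0459). SSCTR was 2.33-fold lower than POF (-1.22 ± 0.23 SE, adjusted p = 0.00949), but that call ended without SSCTR replicate 3 (adjusted p = 0.0516), POF replicate 2 (0.0587) or POF replicate 3 (0.0624).

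POF against WT was at -0.59 for Igfbp2 (adjusted p = 0.138) on this probe, and passed with the mean of both probes (-0.87, adjusted p = 0.0263). The second Igfbp2 probe read 8.15 and 7.41 in WT, 6.34 and 6.91 in POF, and 6.19 and 6.03 in SSCTR, the same order of means. On it POF was 2.22-fold (adjusted p = 0.0329) and SSCTR 3.18-fold below WT (adjusted p = 0.0168), and SSCTR against POF was at -0.52 (adjusted p = 0.296). Its POF call ended without WT replicate 2 (adjusted p = 0.192), POF replicate 2 (0.193) or POF replicate 3 (0.0634), and its SSCTR call against WT without WT replicate 2 (0.114), SSCTR replicate 2 (0.0578) or SSCTR replicate 3 (0.0886). Both ended when no filter on dim probes was set (0.116 and 0.0868), and without background correction SSCTR against WT was at -1.02 in place of -1.67. So both probes were lower in SSCTR than in WT past the threshold, and they differ in whether the larger step lies between WT and POF or between POF and SSCTR.

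Igfbp5 went the other way in POF. IGFBP5 binds both ligands and also binds to matrix. POF was its highest group on each of its 3 probes. On the brightest probe the arrays read 11.90 and 11.91 in WT, 12.39 and 12.71 in POF, and 11.91 and 11.82 in SSCTR. WT and SSCTR overlap, and POF lies above both. POF was 1.56-fold above WT (0.64 ± 0.18 SE, adjusted p = 0.0498) and SSCTR 1.60-fold below POF (-0.68 ± 0.18 SE, adjusted p = 0.0391). Of the 10 alternatives that leave out no array, these calls passed in 6 and 8. Both calls lie close to the threshold, and each ended without any 1 of the 6 arrays. Against WT the adjusted p was then 0.179 and 0.163 (without WT replicates 2 and 3), 0.0696 (without either SSCTR replicate), and 0.0653 and 0.217 (without POF replicates 2 and 3). For SSCTR against POF it was 0.0623 (without either WT replicate), 0.106 and 0.160 (without SSCTR replicates 2 and 3), and 0.0528 and 0.194 (without POF replicates 2 and 3).

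In the fit over all probes no Igfbp5 probe passed: the brightest had an adjusted p of 0.0635 in POF against WT and 0.0507 in SSCTR against POF, and the others had the same direction. One read 10.92 and 10.95 in WT, 11.20 and 11.28 in POF, and 10.64 and 10.88 in SSCTR, with 0.31 in POF against WT (adjusted p = 0.338). The other read 10.91 and 10.48, 11.17 and 11.58, and 10.65 and 11.02 in the same order of groups, with 0.68 in POF against WT (adjusted p = 0.110). On both of them, too, the POF arrays lie above all arrays of WT and SSCTR.

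Igfbp4 and Igfbp3 separated groups without passing in the reported fit. IGFBP4, which holds back IGF action and is cut by the protease PAPP-A, was highest in WT, with 11.40 and 11.43, against 10.84 and 10.89 in POF and 10.90 and 10.91 in SSCTR. Both other groups lie below WT by similar amounts, -0.55 in POF (adjusted p = 0.0594) and -0.51 in SSCTR (adjusted p = 0.137), and the interval of SSCTR against POF was -0.33 to 0.40. Both steps passed without background correction (adjusted p of 0.00307 and 0.0108). Of the 10 alternatives that leave out no array, the POF step passed in 8 and the SSCTR step in 5. The second Igfbp4 probe read 10.82 and 10.47 in WT, 9.70 and 10.19 in POF, and 10.01 and 10.20 in SSCTR, again highest in WT. Igfbp3, the main carrier of IGF1 in blood, was highest in SSCTR, with 6.61 and 6.78 against 6.03 and 5.89 in WT and 6.24 and 6.03 in POF. It was 0.73 above WT in SSCTR (adjusted p = 0.0635, 95% interval 0.33 to 1.13) and 0.56 above POF (adjusted p = 0.0737), and the WT and POF arrays overlap. These 2 steps passed in 3 and 2 of the 10 alternatives that leave out no array. The other Igfbp3 probe was above background on the POF arrays only, and there at 4.81 and 4.75.

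Igfbp6 and Igfbp7 did not pass in any comparison. Igfbp6, which prefers IGF2, read 8.93 and 9.21 in WT, 9.31 and 9.20 in POF, and 8.97 and 9.07 in SSCTR. Igfbp7, a relative with low affinity for the ligands, read 10.47 and 11.05 in WT, 11.05 and 10.73 in POF, and 10.92 and 11.33 in SSCTR. The Igfbp7 arrays overlap in all 3 comparisons, and those of Igfbp6 are apart in SSCTR against POF alone. Every adjusted p for this pair was 0.455 or more. The intervals of Igfbp7 were the widest of the members and reached 0.92 for SSCTR against WT, so a change of up to that size lies within what these arrays allow. Of the 5 Igfbp7 probes, 4 were not above background on any array.

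**Figure D3:**
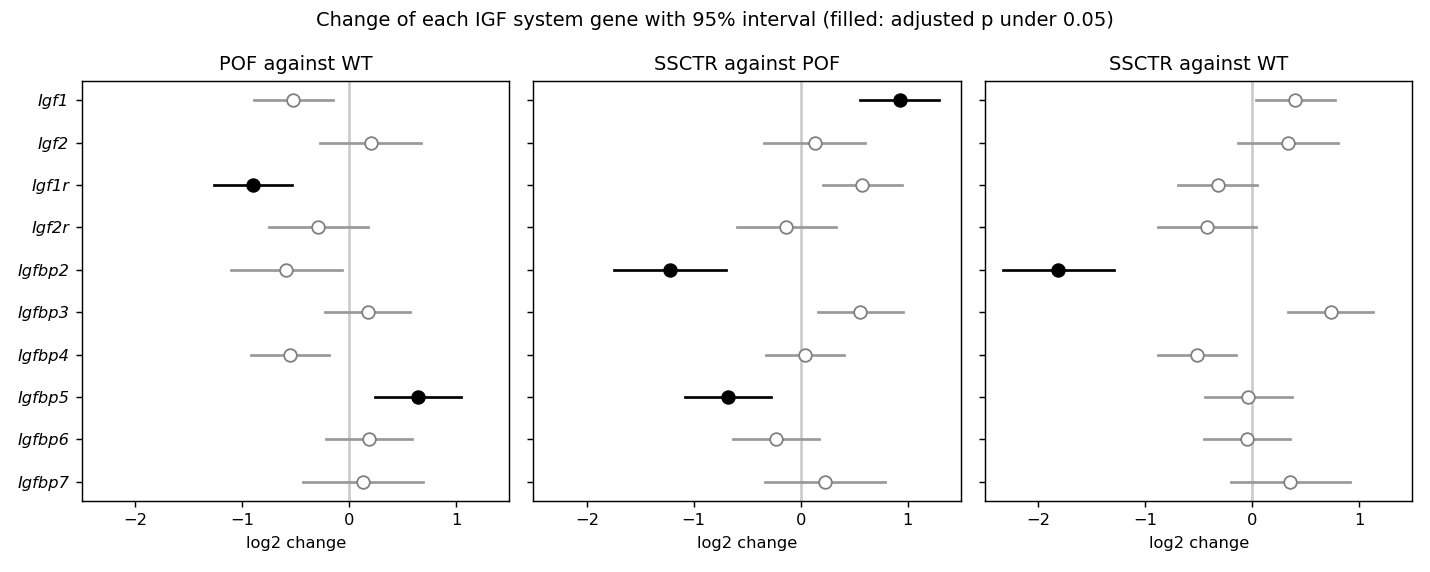
Log2 change (horizontal axis) of each IGF system gene with its 95% interval (line) in the 3 comparisons; filled points passed an adjusted p of 0.05. Igfbp2 lies farthest from 0, at -1.81 in SSCTR against WT, and Igf1 is the one filled point above 0 in SSCTR against POF.

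Counted over the members, 2 of 10 passed in POF against WT, beside 11.9% of all features: Igf1r was lower and Igfbp5 higher. In SSCTR against POF 3 of 10 passed, beside 12.6% of all features: Igf1 was higher, and Igfbp2 and Igfbp5 were lower. Igfbp2 was the 1 of 10 to pass in SSCTR against WT, beside 3.31% of all features. With so few genes these shares say little about the system as a whole. The counts are for the brightest probes. In the fit over all probes, Igf1r probe ILMN_1239663 passed in all 3 comparisons and no Igfbp5 probe passed. The members' median change was -0.08, 0.09 and -0.04 in the 3 comparisons, against -0.03, 0.03 and -0.01 over all features. Groups did not overlap for 6, 8 and 7 of the 10 members, against 54.9%, 55.3% and 47.9% of all features. The 3 comparisons share arrays, so a member high in one group moves in several of them.

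These counts depend on the background correction. Without it, with an offset of 50 and with the authors' normalized values alike, 5 members passed in POF against WT (1 higher and 4 lower), 4 in SSCTR against POF (2 higher and 2 lower) and 3 in SSCTR against WT (1 higher and 2 lower). The share of all features past the threshold under each of these settings is not given here, so the higher counts cannot be read as particular to the members. No member's call reversed its direction under any alternative. Leaving out either WT array or POF replicate 3 left 0 calls in POF against WT in limma, and leaving out any of the others left 1. In SSCTR against POF it was 1 without SSCTR replicate 3, POF replicate 2 or POF replicate 3.

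The neighbours of the system were read from 4 lists of 71 genes: extracellular partners, the insulin and growth hormone axis, RNA-binding proteins with imprinted genes, and intracellular signalling. Of these, 58 had a probe and 45 were measured. In POF against WT 3 rose and 10 fell, beside 6.98% and 4.96% of all features. The median of the 45 was -0.18, against -0.03 over all features. In SSCTR against POF 9 rose and 4 fell, beside 5.33% and 7.25%, with a median of 0.18 against 0.03. In SSCTR against WT 2 rose and 4 fell, beside 1.81% and 1.5%, with a median of 0.12 against -0.01.

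The count of 13 in POF against WT fell to 4 without WT replicate 2 or POF replicate 3, and to 5 without WT replicate 3 or POF replicate 2. In SSCTR against POF the count of 13 fell to 8 without SSCTR replicate 2 or POF replicate 2, and to 7 without POF replicate 3. Without background correction the splits of higher and lower genes were 6 and 10, 11 and 7, and 7 and 7. The shares of all features under that setting are not given beside them.

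Of 6 measured extracellular partners of the binding proteins, 3 fell in SSCTR against POF, beside 7.25% of all features: Pappa, Plat and Stc2. In POF against WT 1 rose and 1 fell (6.98% and 4.96% of all features), and in SSCTR against WT 1 fell (1.5%). Pappa, the protease that cuts IGFBP4 and so frees IGF, read 7.21 and 7.36 in WT, 7.27 and 7.46 in POF, and 6.17 and 5.93 in SSCTR. WT and POF overlap, and SSCTR was 2.48-fold below POF (adjusted p = 0.00203) and 2.35-fold below WT (adjusted p = 0.00939). Against WT the Pappa call was lost when WT replicate 2 (adjusted p = 0.0536), WT replicate 3 (0.0741) or SSCTR replicate 3 (0.0743) was left out. Stc2, stanniocalcin 2, which binds and inhibits PAPP-A, was 2.47-fold lower in SSCTR than in POF (adjusted p = 0.00517). Plat, tissue plasminogen activator, rose 1.78-fold in POF against WT (adjusted p = 0.0240) and was 2.46-fold lower in SSCTR than in POF (adjusted p = 0.00281). Htra1, a serine protease reported to cut IGFBP5, fell 1.73-fold in POF (adjusted p = 0.0190).

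The arrays of Plat read 9.20 and 9.16 in WT, 9.80 and 10.21 in POF, and 8.68 and 8.75 in SSCTR. Leaving out WT replicate 2 (adjusted p = 0.0998), WT replicate 3 (0.110) or POF replicate 3 (0.131) ended the Plat rise. For Htra1 the fall ended without any 1 array of either group, with an adjusted p of 0.0715 and 0.109 (WT replicates 2 and 3) and of 0.0911 and 0.0750 (POF replicates 2 and 3). Its other probe was at -0.91 (adjusted p = 0.0183). For both genes the POF and WT arrays do not overlap.

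In the insulin and growth hormone axis, 1 of 9 measured genes rose and 2 fell in POF against WT (6.98% and 4.96% of all features). From this list 2 rose and 1 fell in SSCTR against POF (5.33% and 7.25%), and in SSCTR against WT 2 rose and 2 fell (1.81% and 1.5%). Ins2, an insulin gene, read 9.22 and 9.18 in WT, 7.46 and 7.43 in POF, and 7.85 and 7.73 in SSCTR. It was 3.38-fold lower in POF (adjusted p = 0.000347) and 2.66-fold lower in SSCTR (adjusted p = 0.00292) than in WT. Insl6, an insulin-like peptide known from male germ cells, read 7.19 and 7.11 in WT, 7.21 and 6.99 in POF, and 8.57 and 8.59 in SSCTR. SSCTR was 2.79-fold above POF (adjusted p = 0.000822) and 2.70-fold above WT (adjusted p = 0.00335). Insrr, an orphan relative of the insulin receptor, read 8.13 and 8.27 in WT, 7.80 and 7.80 in POF, and 9.48 and 9.66 in SSCTR. It was 3.41-fold above POF (adjusted p = 0.000303) and 2.60-fold above WT (adjusted p = 0.00397). All these calls on Ins2, Insl6 and Insrr held without each of the 6 arrays.

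Stat5a, a mediator of growth hormone and prolactin signals, was 2.31-fold lower in SSCTR than in WT on its brightest probe (adjusted p = 0.00678). Stat5a missed the threshold without WT replicate 3 (adjusted p = 0.0594) or SSCTR replicate 3 (0.0502), and with the mean of its probes (-0.36, adjusted p = 0.455). Its other probe stood at 0.49 (adjusted p = 0.502). The insulin receptor gene Insr and the growth hormone receptor gene Ghr did not pass, with changes of 0.46 (adjusted p = 0.103) and 0.31 (adjusted p = 0.396) in POF against WT.

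In the list of RNA-binding proteins with imprinted genes, 1 of 4 measured rose and 1 fell in POF against WT (6.98% and 4.96% of all features). In SSCTR against POF 1 rose and 0 fell (5.33% and 7.25%), and 0 passed in SSCTR against WT (3.31%). The gene that rose in POF against WT was Cdkn1c, by 1.66-fold (adjusted p = 0.0322). Dlk1, a membrane protein that holds cells from differentiating, passed in both comparisons with POF. It read 7.31 and 7.46 in WT, 4.93 and 5.13 in POF, and 6.95 and 7.16 in SSCTR, so that POF lies far below both other groups. POF was 5.11-fold below WT (adjusted p = 0.000120), and SSCTR was 4.07-fold above POF (adjusted p = 0.000207). These sizes depend on the background correction: without it the log2 changes of Dlk1 were -1.14 in place of -2.35 and 0.93 in place of 2.02, and with an offset of 50 they were -1.59 and 1.32, all past the threshold. The other Dlk1 probe was not above background in POF and gave at least 2.34-fold and at least 1.83-fold for the same steps, in the fit over all probes (adjusted p of 0.00282 and 0.00910). Each bound sets the brighter group against the lowest signal among detected probes of the POF arrays. H19 and Igf2bp2 were not analysed here.

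In the list of intracellular signalling genes, 6 of 26 measured fell in POF against WT and 0 rose, beside 4.96% and 6.98% of all features. The 26 include Pdk1, a pyruvate dehydrogenase kinase, which did not pass in any comparison. Of the 26, 6 rose and 0 fell in SSCTR against POF, beside 5.33% and 7.25%, and in SSCTR against WT 0 rose and 1 fell, beside 1.81% and 1.5%. Foxo3, a transcription factor that AKT shuts out of the nucleus and that keeps primordial follicles dormant, read 9.88 and 9.88 in WT, 8.11 and 7.76 in POF, and 8.05 and 8.22 in SSCTR. POF and SSCTR overlap, and WT lies above them. Foxo3 was 3.86-fold lower in POF (adjusted p = 0.000388) and 3.35-fold lower in SSCTR (adjusted p = 0.00204) than in WT. With the mean of its probes Foxo3 was at -1.04 in both comparisons (adjusted p of 0.00913 and 0.0225). Its other probe, above background on 1 of 2 arrays in WT and in POF and on none in SSCTR, stood at -0.13 in POF (adjusted p = 0.778).

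Akt1, the kinase on which the IGF1 receptor's signal converges, read 7.85 and 7.72 in WT, 7.15 and 6.94 in POF, and 8.14 and 8.06 in SSCTR. SSCTR lay 2.08-fold above POF (adjusted p = 0.00492). Map2k1, a kinase of the MAP kinase path, was 2.60-fold lower in POF than in WT (adjusted p = 0.00223). These calls on Foxo3, Akt1 and Map2k1 held without each of the 6 arrays. The others that fell in POF against WT were Akt1, Gsk3a, Gsk3b and Pik3r3, by 1.51-fold (Pik3r3) to 1.67-fold (Akt1). The others that rose in SSCTR against POF were Akt2, Pik3r3, Irs2, Eif4ebp1 and Map2k1.

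**Figure D4:**
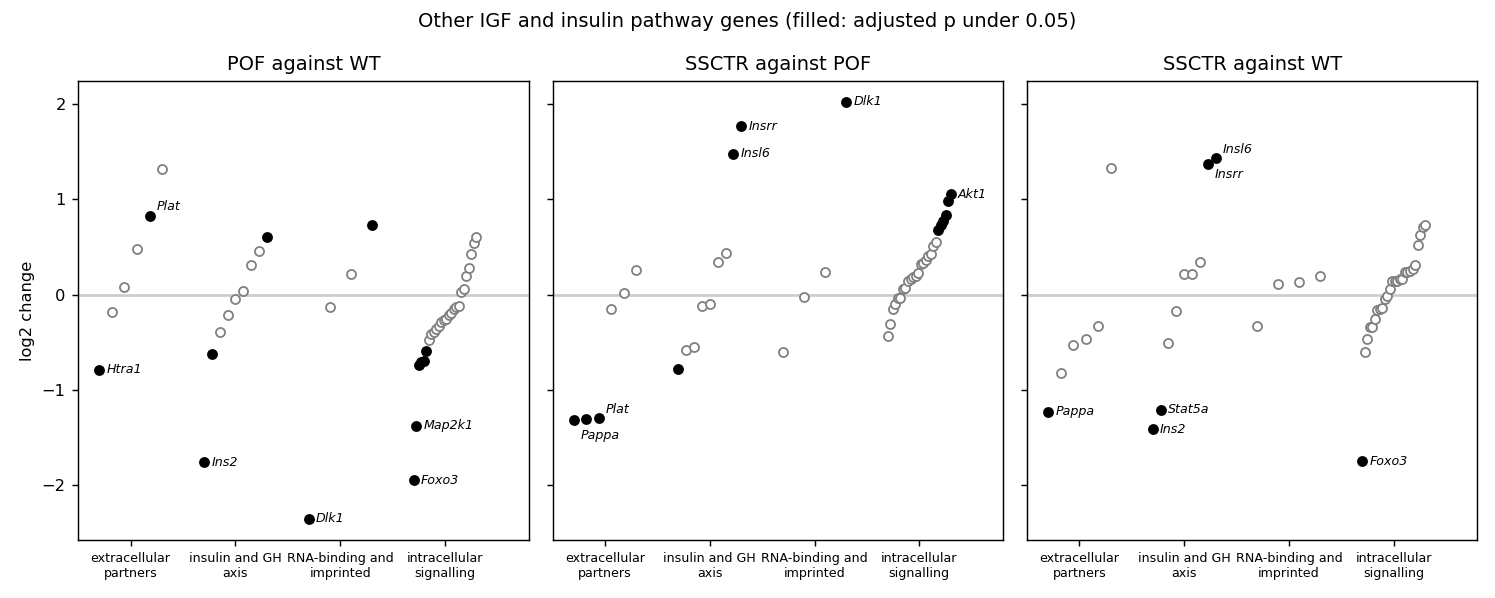
Log2 change (vertical axis) of the 45 other pathway genes, by list (horizontal axis), in the 3 comparisons; filled points passed an adjusted p of 0.05, and the genes with the lowest adjusted p are named. Dlk1 lies lowest in POF against WT (-2.35) and highest in SSCTR against POF (2.02), and Pappa is low in both SSCTR comparisons.

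Marker genes of several cell types also differed between the groups. Their summed levels, in which the brightest genes weigh most, did not always follow the order of the member set beside them. In bulk ovary fewer cells of a type and less RNA per cell cannot be told apart. Where Igf1 and Igf1r were lowest, in POF, 3 of 11 measured granulosa genes were lower than in WT and 1 was higher, beside 4.96% and 6.98% of all features. Of the 11, 6 were higher and 1 lower in SSCTR against POF, beside 5.33% and 7.25%. The 6 that were higher had group means in the order of Igf1, with POF lowest and SSCTR highest, and the rest did not. The summed level of the granulosa genes ran from 27442 to 29546 in WT, 26205 to 26949 in POF and 26916 to 28610 in SSCTR, with Amh not above background. Inha, the brightest of them, had means of 13.70 in WT, 13.74 in POF and 13.43 in SSCTR. Of 12 oocyte genes, 10 fell in POF against WT and 11 rose in SSCTR against POF, against the same shares, and the summed level ran from 11281 to 11551 in WT, 5234 to 5393 in POF and 8947 to 9852 in SSCTR. The part of these cells in the IGF values was not tested.

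Where Igfbp5 was highest, in POF, 4 of 5 oviduct, 5 of 7 surface epithelium and 5 of 10 macrophage genes were higher than in WT and 0 were lower, beside 6.98% and 4.96% of all features. Of the same genes, 5, 6 and 5 were lower in SSCTR against POF and 0 were higher, beside 7.25% and 5.33%. The summed level of 5 oviduct genes was 474 to 500 in WT, 5241 to 6818 in POF and 308 to 315 in SSCTR, with Foxj1 and Pax8 not above background. That of 7 surface epithelium genes was 1645 to 1800 in WT, 4280 to 5052 in POF and 1095 to 1407 in SSCTR, with Lrrn4 not above background. Macrophage genes summed to 3833 to 4301 in WT, 10015 to 13195 in POF and 3419 to 3881 in SSCTR, with Lyz2, C1qb and Gpnmb the brightest. Of the macrophage genes, Csf1r, Adgre1, Cd14, Ctss and Mrc1 did not pass in either comparison. Igfbp2, lowest in SSCTR, has beside it theca and interstitial genes at 5298 to 5778 in WT, 3904 to 4326 in POF and 4679 to 4690 in SSCTR, and fibroblast genes at 7633 to 8551, 7710 to 8233 and 7806 to 8526 in the same order. Of 8 measured theca and interstitial genes, 3 were lower in POF than in WT (4.96% of all features) and 1 in SSCTR than in WT (1.5%). Of 6 fibroblast genes, 1 was lower in POF than in WT and 0 passed in SSCTR against WT. In SSCTR against POF 0 of either list passed (12.6%), and 0 were higher in any comparison. The summed level of 10 endothelial genes lay between 4830 and 5384 on all arrays, with Egfl7, Kdr and Cldn5 the brightest, but single genes moved. In POF against WT Plvap (2.54-fold) and Tek (2.21-fold) were higher and Eng (1.75-fold) was lower. Plvap was 2.82-fold lower in SSCTR against POF, and there Kdr (1.61-fold) and Eng (1.56-fold) were higher. The part of these cells in the Igfbp5 and Igfbp2 values was not tested.

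The genes most like each of the 4 members in their course over the 6 arrays were named by the distance between log2 profiles centred on their own mean, as a description. Igf1 was closest to Cdc20, a regulator of mitotic exit, at a distance of 0.14 log2 units, then to Taf1d and Ext1. Igf1r was closest to Tagln, an actin-binding protein of smooth muscle (0.11), then to Tyk2 and Fen1. Igfbp5 was closest to Robo4, a receptor of endothelial cells (0.10), then to Morf4l1 and Bin3. Igfbp2 had its closest genes farther off: Timp4, an inhibitor of metalloproteinases, came first at 0.60, followed by Itgb7 and Scara5. In SSCTR the means of Timp4 (4.72), Itgb7 (4.55) and Bin3 (4.70) lay below the lowest signal among detected probes of those arrays (4.83 and 4.87). Their likeness there is to values near background. All the genes named as most alike were picked from 11053 named genes, over 6 arrays that fall into 3 groups.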

How the data were processed

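Total RNA of ovaries was measured on 9 labelled samples, 3 in each of 3 groups; replicates 2 and 3 of each group were used. The authors deposited average signal intensities and a detection p-value per probe, per the file headers. The deposited replicate 1 detection column reaches above 1, so it was taken as a score and not used in the reported fits. Only the alternative with all 9 columns drew on it, for its filter and its background correction. GenomeStudio is named in the submitters' processing notes, without a version. Sorted intensities of the 6 arrays lie within 0.541% of each other, so they were already brought to 1 distribution. The authors' other deposited table matches a quantile normalization of the intensities, and is an alternative here.

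The 45281 probes have 1 symbol (34885), several (18) or none (10378). For background correction and normalization, neqc was run (limma 3.58.1, R 4.3.3) (normexp with offset 16, background from the detection p-values, quantiles, log2). A probe entered with a detection p under 0.05 on at least 2 of 6 arrays (19394 did), and the brightest stands for its gene (13872 features). The 3 groups were fitted in 1 limma model, adjusted by Benjamini-Hochberg over all features, with a second fit over all probes, and the fit was tested on simulated data. Every adjusted p is limma's. Named beside the members were, per comparison, the 6 pathway genes with the lowest adjusted p past the threshold, and for each member past it the 3 nearest profiles. Stc2, Insr, Ghr, Cdkn1c, the remaining signalling calls and single macrophage and endothelial genes were named after their values were seen. Members, lists and tests were chosen with earlier results of these data known. Summed levels add a list's intensities after neqc, on the linear scale.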

Additional observations from a re-analysis of the deposited data

How the results depend on the processing

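Each group has 2 arrays, so leaving 1 out leaves a lone array assumed to vary like the others. The alternatives for probes and for pathway genes were chosen after seeing the data. No call of a member reversed its direction. The number of IGF members past the threshold in POF against WT (2) became 5 without background correction, with an offset of 50, with the authors' normalized values or with all 9 columns, 4 with a detection p of 0.01 required on all arrays or a prior with a trend, 1 with array weights, and 0 to 1 without single arrays. In SSCTR against POF (3) it became 5 with the stricter detection p or all 9 columns, and 1 to 2 without single arrays. In SSCTR against WT (1) it became 3 without background correction, with an offset of 50 or with the authors' values, 2 with the stricter detection p or the trend, 5 with all 9 columns, and stayed at 1 without single arrays. Probes of members past the threshold in POF against WT (3) became 9 without background correction, with the authors' values or with all 9 columns, 8 with an offset of 50 or the trend, 6 with the stricter detection p, and 1 to 3 without single arrays. In SSCTR against POF (3 probes) they became 7 without background correction, with the authors' values or with the trend, 6 with an offset of 50, 5 with the stricter detection p, 10 with all 9 columns, and 1 to 3 without single arrays; in SSCTR against WT (3 probes) 5 with an offset of 50, 7 with all 9 columns, and 2 to 3 without single arrays. The pathway count became 24 (POF against WT, 13) and 26 (SSCTR against POF, 13) with all 9 columns, and 4 to 10 and 7 to 13 without single arrays. In SSCTR against WT (6) it became 14 without background correction or with the authors' values, 10 with an offset of 50 or the stricter detection p, 11 with the trend, 23 with all 9 columns, and 4 to 6 without single arrays. All 9 columns count the derived replicate 1 as an array, so the spread under that setting is too small. That setting also drew on the replicate 1 detection column, which reaches above 1, for its filter and background correction. The cause of the other shifts was not tested. Shares of all features past the threshold under each alternative are not given beside these counts, so no shift can be read as particular to the IGF genes.

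The replicate numbers are shared between groups, but deviations of same-numbered arrays did not go together (r = -0.0171, -0.0628 and -0.00259 over 13872 features). Each group gives only the difference between its replicates, and features are not independent replicates. Whether same-numbered arrays were handled together therefore cannot be decided from these values, and the labels do not say. With the replicate block 1 member passed in POF against WT, 2 in SSCTR against POF and 1 in SSCTR against WT; Igfbp5 missed the threshold in both of its comparisons (adjusted p = 0.0733 and 0.0591). Of the 300 values of members under alternatives that leave out no array, 252 kept their side of the threshold, 42 passed only under the alternative and 6 only in the reported fit. Most of the 300 belong to comparisons in which the member did not pass in the reported fit, so the tally does not measure how stable the calls are.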
